A study of Rattus norvegicus with 20 samples.

Results

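The miR-7 family comprised 3 miRNAs, rno-miR-7a-5p, rno-miR-7a-2-3p and rno-miR-7b, of the 677 rat miRNAs on the arrays. They were chosen from measured values: rno-miR-7a-5p had the largest difference between round spermatids and pachytene spermatocytes, and the other two were taken for comparison as the 3p arm of 1 of its precursors and the closest paralog. The difference between the cell types is therefore given as a description with no test, while the comparison of cyclophosphamide with saline was not used in the choice and was tested. All 3 members were among the 217 miRNAs that passed the filter on dim signals, but miR-7a-2-3p and miR-7b passed only through round spermatids, where they were high. A further array row of the same name, rno-miR-7a-1-3p, did not pass and is given by its values.

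The study exposed male Sprague-Dawley rats to cyclophosphamide, an alkylating anticancer and immunosuppressive drug, by gavage at 6 mg/kg on 6 days a week for 4 weeks, and gave control rats saline on the same schedule. Round spermatids, the haploid cells that follow meiosis, and pachytene spermatocytes, the cells in meiotic prophase that precede it, were separated by their sedimentation velocity. The 20 one-colour miRNA arrays made 4 groups of 5: round spermatids of cyclophosphamide rats, round spermatids of saline rats, pachytene spermatocytes of cyclophosphamide rats and pachytene spermatocytes of saline rats. The labels give no age and no purity of the fractions, and each array carries a rat number. Some numbers recur in both cell types of a treatment, and the labels do not say whether they mark the same animals. The p-values reflect variation between animals only if the rat numbers mark separate animals.

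MicroRNAs are cut from RNA hairpins, and either arm of a hairpin, 5p or 3p, can be loaded into an Argonaute protein to repress messages that pair with its seed, bases 2 to 8. The miR-7 sequence is conserved from flies to mammals and is best known from pancreatic islets, pituitary and brain. The circular RNA Cdr1as carries many sites for miR-7, and miR-671 has a site in Cdr1as at which the circle is cut.

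The mature sequences are shown because they decide which rows of the array can be told apart. All come from RefSeq on build GRCr8, run 5′ to 3′ and have the seed in capitals.
rno-miR-7a-5p: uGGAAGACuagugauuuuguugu
rno-miR-7b: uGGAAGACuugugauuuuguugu
rno-miR-7a-2-3p: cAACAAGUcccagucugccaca
rno-miR-7a-1-3p: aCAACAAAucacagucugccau
Counted from the 5′ end, miR-7a-5p and miR-7b differ by the single substitution A10U, outside the seed. Both carry the seed GGAAGAC, which no other of the 693 mature miRNAs in the RefSeq table has. The seeds of both 3p arms differ from it and from each other. Shifted by 1 base, the 3p arms match at 18 of 21 aligned positions.

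The hairpins show why the 3p arms were compared: identical miR-7a-5p comes from both miR-7a precursors, whereas each 3p arm belongs to 1 of them. Capitals mark the annotated mature arms.
rno-mir-7a-2 (RefSeq symbol Mir8): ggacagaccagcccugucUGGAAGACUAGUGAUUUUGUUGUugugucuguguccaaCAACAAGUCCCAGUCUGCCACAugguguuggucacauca
rno-mir-7a-1 (RefSeq symbol Mir7-1): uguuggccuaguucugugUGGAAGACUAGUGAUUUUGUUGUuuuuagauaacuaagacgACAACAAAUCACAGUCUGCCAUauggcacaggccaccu
The rno-mir-7a-2 hairpin lies at chr1:142215800-142215894 on the plus strand of GRCr8, inside a long noncoding RNA locus. The rno-mir-7a-1 hairpin lies at chr17:6278692-6278788 on the plus strand, within the bounds of Hnrnpk, which encodes an RNA-binding protein. The precursor of miR-7b lies at chr9:1167436-1167545 on the plus strand, with only the 5p arm annotated, and overlaps the pseudogene Rpl35l3. The signal of miR-7a-5p cannot be divided between its 2 precursors. How far the probes for miR-7b also bound miR-7a-5p, or those for one 3p arm the other, was not tested.

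Feature Extraction, the scanner software, detected between 181 and 281 miRNAs per array. Signals are on a linear scale set to a common level between arrays, with a floor of 12.2 (3.61 on the log2 scale) below which values have no order. The germ cell list, arms of miR-34b, miR-34c, miR-449a and miR-449c, had a summed signal between 15614 and 35582 on every array. These miRNAs mark meiotic and later germ cells, the labelled cell types. The sum was mostly the 5p arms of miR-34b, miR-34c and miR-449a. Not every arm was seen: miR-449c-3p was detected on no array and miR-449c-5p on 2 of 5 saline pachytene arrays only. miR-449a-3p was detected on every pachytene array and on no round spermatid array. The arrays lay on 3 slides, and slide 3 held 4 round spermatid arrays only. The dimmest arrays were saline round spermatid array 16 and cyclophosphamide round spermatid array 14, whose file holds signals rounded to 3 significant digits.

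rno-miR-7a-5p was detected on all 20 arrays and was bright in round spermatids and dim in pachytene spermatocytes of both treatments. Its scaled signal in round spermatids was 299, 457, 313, 219 and 297 in cyclophosphamide rats 14, 15, 16, 25 and 26, and 313, 225, 369.8, 243 and 316 in saline rats 15, 16, 17, 25 and 28. In pachytene spermatocytes it was 28.5, 28.8, 35.4, 26.2 and 27.2 on the 5 cyclophosphamide arrays, numbered 7, 15, 16, 16 and 29. The 2 arrays numbered 16 carry different years in their labels, which do not say whether they are separate animals. In saline rats 13, 16, 25, 26 and 28 it was 54.1, 23.99, 48.1, 36.9 and 29.8. The cell types did not overlap: the lowest round spermatid array stood 4.05-fold above the highest pachytene array. Within each cell type the treatments overlapped.

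**Figure D1:**
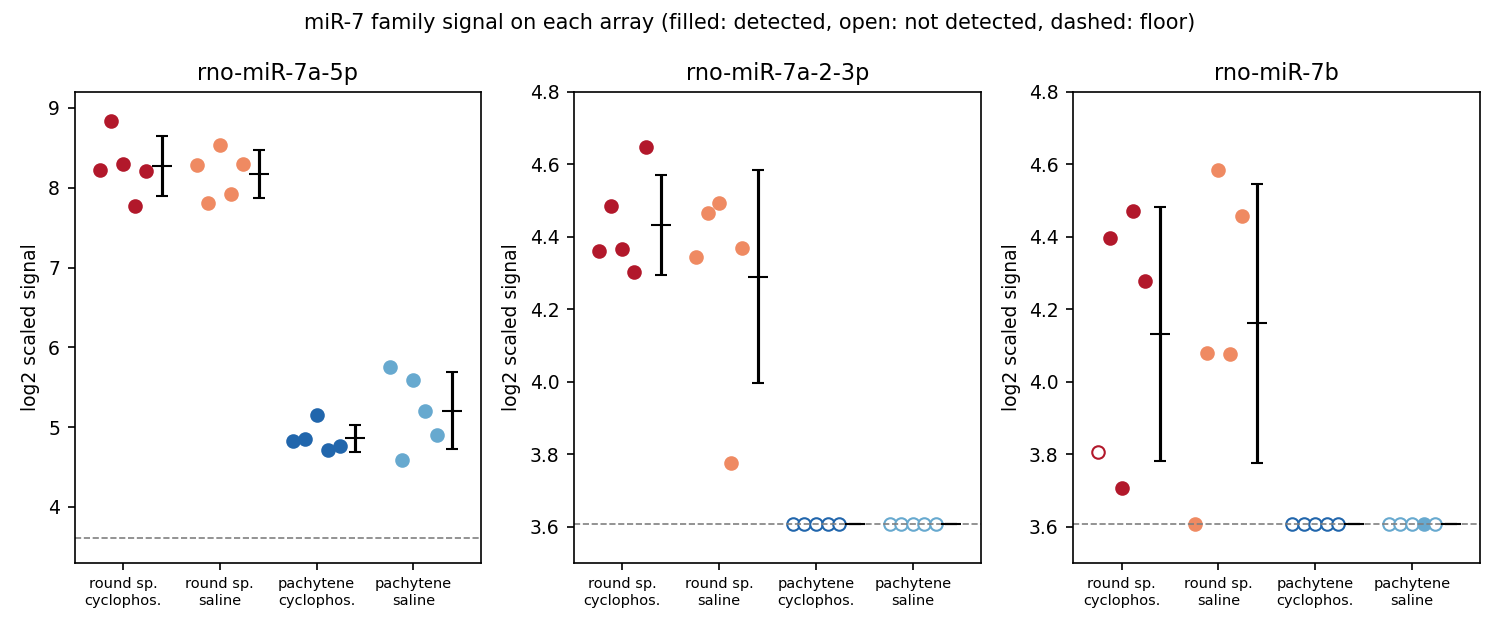
Log2 scaled signal of rno-miR-7a-5p, rno-miR-7a-2-3p and rno-miR-7b on each of the 20 arrays, in 4 groups of 5, with the mean and SD beside each group. Filled points were detected by the scanner software and open points were not; the dashed line is the floor at 3.61, on which both miR-7a-2-3p and miR-7b lie in all 10 pachytene arrays.

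On the log2 scale miR-7a-5p averaged 8.27 ± 0.38 in round spermatids of cyclophosphamide rats, 8.17 ± 0.30 in round spermatids of saline rats, 4.86 ± 0.17 in pachytene spermatocytes of cyclophosphamide rats and 5.21 ± 0.48 in those of saline rats (SD, n = 5 each). The order of the levels was therefore cyclophosphamide and saline round spermatids, then saline and cyclophosphamide pachytene spermatocytes, and the treatments within a cell type overlapped. In round spermatids they differed by less than the SD of either group; in pachytene spermatocytes the difference was within the SD of the saline arrays but above that of the cyclophosphamide arrays. Round spermatids minus pachytene spermatocytes was 3.41 ± 0.21 (SE) in cyclophosphamide rats, a 10.6-fold difference (95% interval 7.77 to 14.5). In saline rats it was 2.97 ± 0.21, a 7.82-fold difference (5.72 to 10.7). The intervals do not allow for the choice of miR-7a-5p by this difference, so they are no test of it. Of all 217 tested miRNAs 29.5% were called higher in round spermatids of cyclophosphamide rats and 22.6% lower, at an adjusted p under 0.05 in limma. In saline rats 25.8% were called higher and 21.7% lower. The median difference over all tested miRNAs was 0.06 in cyclophosphamide rats and 0.02 in saline rats.

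miR-7a-5p stood first of 217 in both treatments, which is what it was chosen for, though some miRNAs below it are held down by the floor. Next below it in cyclophosphamide rats were miR-143-3p at 2.004 ± 0.23 (SE), a miRNA of smooth muscle and mesenchymal cells, miR-223-3p at 1.96 ± 0.16, a miRNA of myeloid blood cells, and miR-497-5p at 1.89 ± 0.18, of the miR-15 and miR-16 seed family. In saline rats the next were miR-223-3p at 2.15 ± 0.16, miR-146a-5p at 2.01 ± 0.19, a miRNA of immune cells that also marks spermatogonia, and miR-145-5p at 1.87 ± 0.34, which is made from the same transcript as miR-143. All 10 pachytene arrays of miR-146a-5p lay at the floor, so its value and its place are set by the floor. With the floor lowered by 1 log2 unit miR-7a-5p stood at 2.97 and miR-146a-5p at 2.85 in saline rats, and within slide 2 miR-7a-5p stood at 2.58 and miR-146a-5p at 2.55. Under the total gene signal, another column of the scanner files, miR-146a-5p passed miR-7a-5p, at 3.51 against 3.36 for miR-7a-5p in cyclophosphamide rats and at 3.42 against 3.02 in saline rats. Normexp background correction with quantile normalization gave miR-7a-5p smaller differences, 1.93 in cyclophosphamide rats and 1.70 in saline rats.

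**Figure D2:**
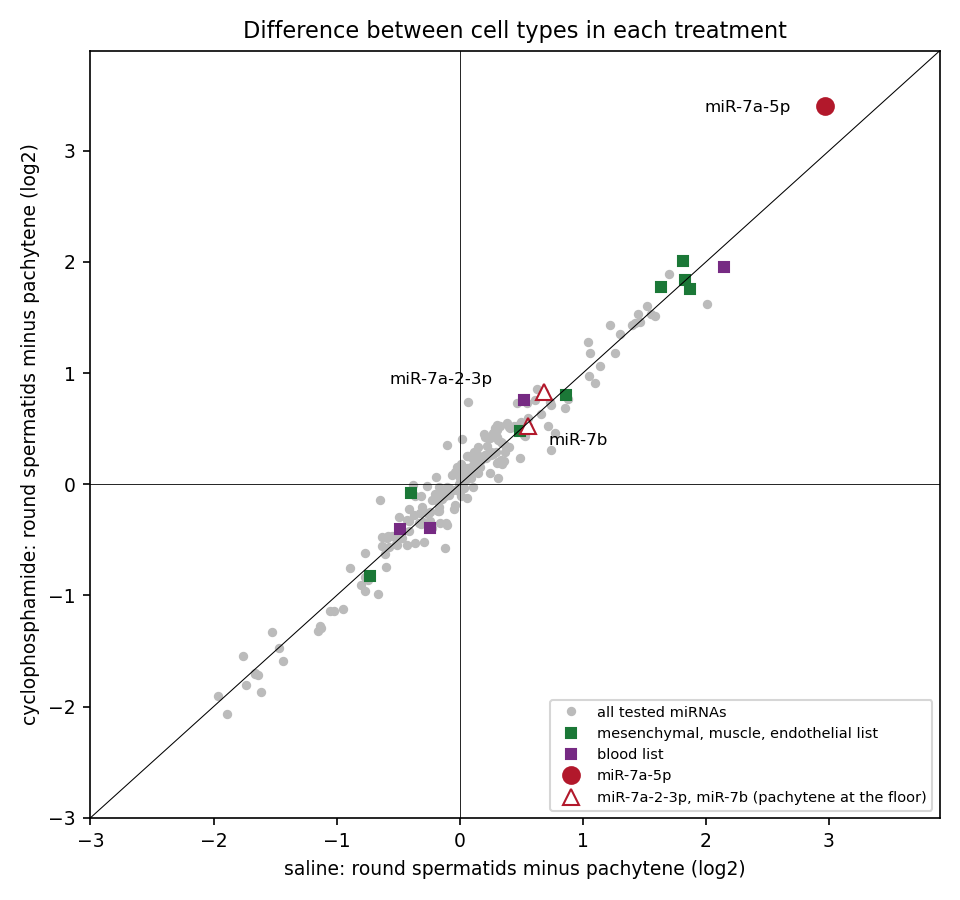
Round spermatids minus pachytene spermatocytes on the log2 scale for the 217 tested miRNAs, in cyclophosphamide rats (y axis) and saline rats (x axis); the diagonal marks equal differences. miR-7a-5p lies at 3.41 in cyclophosphamide and 2.97 in saline rats, beyond every other miRNA; miR-7a-2-3p and miR-7b are drawn at fitted values that depend on the floor.

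The arrays carry 2 probes for miR-7a-5p, each printed as 10 spots, and the brighter stands for it above. The dimmer probe gave 85.1, 117, 79.6, 96.5 and 94.3 in round spermatids of cyclophosphamide rats, against 8.43, 6.72, 15.1, 10.4 and 10.2 in pachytene spermatocytes of cyclophosphamide rats. In saline rats it gave 86.4, 97.6, 127, 89.6 and 114 in round spermatids, against 14.3, 5.25, 15.3, 14.7 and 11.2 in pachytene spermatocytes. It also separated the cell types on every array, by 2.88 in cyclophosphamide rats and 2.90 in saline rats (log2). Since it reads the miRNA chosen by this difference on the same arrays, it is no separate evidence. Since 4 of 5 cyclophosphamide and 2 of 5 saline pachytene values of this probe lay under the floor and were set to it, the sizes are held down and cannot be compared between the treatments.

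**Figure D3:**
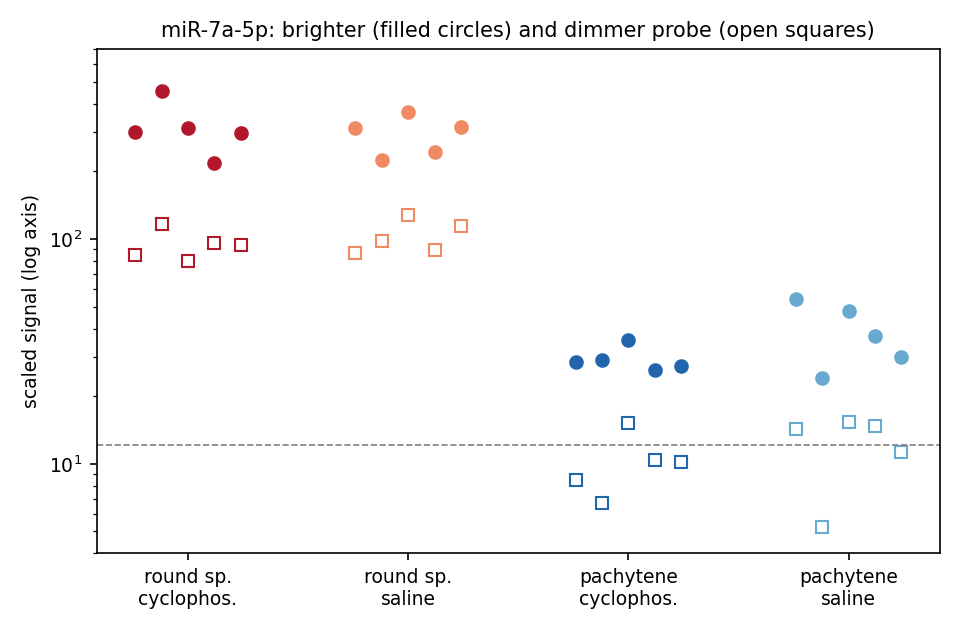
Scaled signal (log axis) of the brighter (filled circles) and the dimmer (open squares) probe for miR-7a-5p on the 20 arrays by group; the dashed line is the floor. Each probe is higher on every round spermatid array than on any pachytene array, and most pachytene values of the dimmer probe lie near or below the floor.

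Within slide 1, round spermatids minus pachytene spermatocytes was 3.61 in cyclophosphamide rats and 3.12 in saline rats, and within slide 2 it was 2.90 in cyclophosphamide rats and 2.58 in saline rats. Slide 3 held no pachytene array, and without it the differences were 3.42 in cyclophosphamide rats and 2.85 in saline rats. The direction was the same in each of these, with few arrays per slide. These are parts of the arrays by which miR-7a-5p was chosen, so they are no separate evidence.

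Marker miRNAs of other cell types also differed between the fractions. Of the 10 arms of the mesenchymal, muscle and endothelial list, 8 were tested, and 6 were called higher in round spermatids in either treatment, where 29.5% of all tested miRNAs were in cyclophosphamide rats and 25.8% in saline rats. The median difference over the 8 was 1.28 in cyclophosphamide rats and 1.25 in saline rats, beside 0.06 in cyclophosphamide and 0.02 in saline rats over all 217. The summed signal of the 10 arms ranged over 2017 to 3869 in round spermatids and 599 to 1061 in pachytene spermatocytes of cyclophosphamide rats. In saline rats it ranged over 2436 to 3685 in round spermatids and 753 to 1540 in pachytene spermatocytes. In round spermatids the sum was mostly miR-143-3p, with a log2 mean of 11.2 in cyclophosphamide and 11.3 in saline rats. The next arm, miR-145-5p, averaged 7.65 in cyclophosphamide and 7.94 in saline rats. The members called higher were arms of miR-143, miR-145, miR-199a and miR-214. The endothelial miR-126a-3p stood at -0.83 in cyclophosphamide rats, where it was called lower, beside 22.6% of all tested. In saline rats it stood at -0.73 and was not called. miR-126a-5p, at the floor in round spermatids, stood at -0.08 in cyclophosphamide rats and -0.39 in saline rats and was not called. Among those called higher, miR-143-5p passed the filter only through round spermatids and lay at the floor in pachytene spermatocytes. Its call is therefore no separate evidence. miR-145-3p and miR-214-5p were detected on no array.

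Of the 10 arms of the blood list, 4 were tested. In cyclophosphamide rats 2 were called higher in round spermatids, miR-142-3p and miR-223-3p, beside 29.5% of all tested. In saline rats 1 was, miR-223-3p, beside 25.8%. With 4 tested these shares are not read as a result about the list. The other tested arms were not called: miR-150-3p stood at -0.40 in cyclophosphamide and -0.48 in saline rats. miR-150-5p stood at -0.40 in cyclophosphamide and -0.24 in saline rats. The summed signal of the blood list was 231 to 295 in round spermatids and 165 to 210.3 in pachytene spermatocytes of cyclophosphamide rats, and 230.3 to 289 in round spermatids and 179 to 209 in pachytene spermatocytes of saline rats. The red cell miRNAs miR-144-3p, miR-144-5p and miR-451-3p were detected on no array, and miR-451-5p on 1 of 20. In the summed signals, arms under the floor enter at the floor. The Sertoli cell miRNA miR-202-3p was called lower in round spermatids, at -1.54 in cyclophosphamide rats and -1.76 in saline rats. Of 8 arms of spermatogonial markers 4 were tested. Of these 1, miR-146a-5p, was called higher in round spermatids in both treatments, beside 29.5% of all tested in cyclophosphamide and 25.8% in saline rats. miR-221-3p and miR-222-3p were called lower in both treatments. miR-21-5p was called lower in saline rats and did not pass in cyclophosphamide rats. miR-146a-5p passed the filter only through round spermatids, and miR-222-3p only through pachytene spermatocytes. The calls of these miRNAs are therefore no separate evidence. In these bulk fractions more cells of a type and more RNA per cell cannot be told apart, and the part of other cell types in the miR-7 difference was not tested.

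Over the 10 round spermatid arrays alone, miR-7a-5p and the summed mesenchymal list had Pearson's r of -0.49 (permutation p = 0.151) and Spearman's rho of -0.18 (p = 0.631), with r of -0.22 after leaving out the 2 arrays farthest from the median of the list. For the blood list r was 0.06 (permutation p = 0.870) and rho 0.14 (p = 0.709), and r was -0.20 without the 2 farthest arrays. These are 2 of 5 correlations computed, for which the lowest p adjusted over the 5 was 0.627 for r and 0.619 for rho. Each slide held too few round spermatid arrays for a value of its own.

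**Figure D4:**
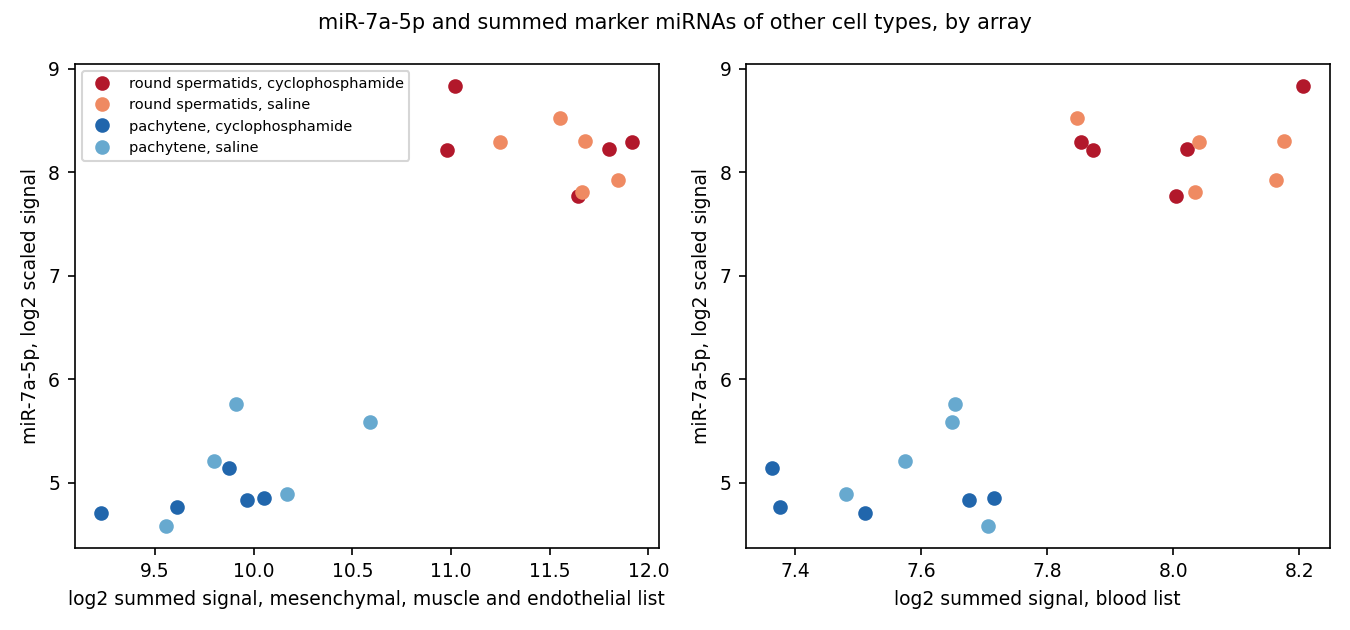
Log2 scaled signal of miR-7a-5p against the log2 summed signal of the mesenchymal, muscle and endothelial list (left) and the blood list (right) on each of the 20 arrays, coloured by group. Round spermatid arrays lie above and to the right of pachytene arrays. Among the 10 round spermatid arrays r was -0.49 for the first list and 0.06 for the second. Neither passed a permutation test.

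rno-miR-7a-2-3p, the arm that only the miR-7a-2 precursor gives, was detected on all 10 round spermatid arrays and on none of the 10 pachytene arrays. Its scaled signal in round spermatids was 20.5, 22.4, 20.6, 19.7 and 25.1 in cyclophosphamide rats 14, 15, 16, 25 and 26, and 20.3, 22.1, 22.5, 13.7 and 20.7 in saline rats 15, 16, 17, 25 and 28. On pachytene arrays it lay between 0.85 and 2.89 in cyclophosphamide rats and between 2.09 and 4.71 in saline rats, not well above background. Every round spermatid value was above the floor and every pachytene value under it. The probe was well above background on 4 of 5 round spermatid arrays in either treatment.

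Since pachytene spermatocytes give only a bound for miR-7a-2-3p, its fold is a lower limit: the round spermatid mean is set over a pachytene mean in which each array enters at its dimmest signal still well above background, or at the arm's own signal if that is higher. Round spermatids were at least 2.37-fold above pachytene spermatocytes in cyclophosphamide rats and at least 2.19-fold in saline rats. These limits are for the group means and carry no interval. The size of the difference has no upper value, and since the arm passed the filter only through round spermatids its direction is no separate evidence. The second of its 2 probes averaged 13.3 ± 1.95 in round spermatids and 1.69 ± 0.55 in pachytene spermatocytes of cyclophosphamide rats, and 13.5 ± 1.86 in round spermatids and 2.15 ± 1.03 in pachytene spermatocytes of saline rats (scaled signal, SD, n = 5 each).

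rno-miR-7a-1-3p, the corresponding arm of the miR-7a-1 precursor, stayed near the floor in both cell types. It was detected on 4 of 5 cyclophosphamide and 4 of 5 saline round spermatid arrays, and on 4 of 5 cyclophosphamide and 3 of 5 saline pachytene arrays. In round spermatids its scaled signal was 11.7, 12.2, 11.7, 10.2 and 11.9 in cyclophosphamide rats 14, 15, 16, 25 and 26, and 12.6, 10.8, 10.2, 14.0 and 12.4 in saline rats 15, 16, 17, 25 and 28. In pachytene spermatocytes it lay between 5.52 and 8.38 in cyclophosphamide rats and between 7.49 and 9.24 in saline rats. All 10 pachytene values and 6 of the 10 round spermatid values were under the floor, so no order, fold or test is given.

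rno-miR-7b, the paralog with the same seed, was detected on 4 of 5 cyclophosphamide and 5 of 5 saline round spermatid arrays, and on 0 of 5 cyclophosphamide and 1 of 5 saline pachytene arrays. Its scaled signal in round spermatids was 14.0, 21.1, 13.1, 22.2 and 19.4 in cyclophosphamide rats 14, 15, 16, 25 and 26, and 11.8, 16.9, 24.02, 16.9 and 22.0 in saline rats 15, 16, 17, 25 and 28. On pachytene arrays it lay between 1.46 and 3.36 in cyclophosphamide rats and between -0.14 and 5.44 in saline rats, under the floor throughout. No pachytene array had the probe well above background, and only 3 of 5 round spermatid arrays did in either treatment.

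As lower limits of the group means, miR-7b was at least 1.93-fold higher in round spermatids than in pachytene spermatocytes of cyclophosphamide rats. In saline rats the value was 2.005-fold. There round spermatid array 15, at 11.8, entered at the floor, so this value is slightly above a true lower limit. Within slide 1, where that array is the only saline round spermatid array, it was only 0.07 on the log2 scale. These values include round spermatid arrays not well above background and carry no interval. Of its 4 probes, 2 gave mean signals of 1.005 or less in every group, and the signal came from the other two. The brighter of these stands for miR-7b above; the dimmer averaged 10.2 ± 4.34 in cyclophosphamide and 10.03 ± 0.86 in saline round spermatids, and 0.45 ± 0.75 in cyclophosphamide and 0.84 ± 1.205 in saline pachytene spermatocytes (scaled signal, SD, n = 5 each). Of the 3 members, miR-7a-5p alone had a size that the arrays measured on both sides.

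Cyclophosphamide was then compared with saline within each cell type, a comparison that the choice of members did not use. No member passed the test in either cell type. Among all 217 miRNAs limma called 0% at an adjusted p under 0.05, in round spermatids, in pachytene spermatocytes and in the contrast between the 2 drug effects alike. At an unadjusted p under 0.05 there were 4 in round spermatids, 1 in pachytene spermatocytes and 1 for the contrast.

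In round spermatids miR-7a-5p stood at 0.10 ± 0.21 (SE; 95% interval -0.35 to 0.55, limma adjusted p = 0.934) for cyclophosphamide minus saline. The exact two-sided permutation test over all splits of 5 arrays against 5 gave p = 0.675, where 0.00794 is the smallest it can give. The sign depended on the processing: it was -0.01 as the mean over both probes, -0.04 within slides 2 and 3, and -0.05 without cyclophosphamide rat 15, the brightest array.

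In pachytene spermatocytes the value for miR-7a-5p was -0.34 ± 0.21 (SE; 95% interval -0.79 to 0.10, limma adjusted p = 1), the lowest of the 217 in that comparison. Its exact permutation p was 0.198. The cyclophosphamide arrays, at 26.2 to 35.4, lay inside the range of the saline arrays, at 23.99 to 54.1, and saline rats 13 and 25 were the highest. Leaving out each array in turn gave -0.50 without saline rat 16 (95% interval -0.93 to -0.07, limma adjusted p = 1) to -0.21 without saline rat 13. It was -0.51 with no scaling, -0.44 with quantile normalization and -0.16 with normexp, and adjusted p was 0.417 or more under all alternatives tried. The drug effect in round spermatids minus that in pachytene spermatocytes was 0.44 ± 0.30 (SE; 95% interval -0.20 to 1.08, limma adjusted p = 1). It was 0.22 with normexp, 0.24 with array weights and 0.21 as the mean over both probes, in which pachytene values of the dimmer probe are held at the floor. Leaving out each array in turn gave 0.299 without cyclophosphamide round spermatid rat 15 to 0.60 without saline pachytene rat 16 (95% interval 0.0059 to 1.19), with limma adjusted p of 0.627 or more under all alternatives tried.

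For miR-7a-2-3p in round spermatids cyclophosphamide minus saline was 0.14 ± 0.10 (SE, limma adjusted p = 0.810). Since that SE shares the spread of pachytene arrays held at the floor, the fit of the 2 round spermatid groups alone is given beside it, with a 95% interval of -0.17 to 0.46 and an adjusted p of 0.965 in limma. The exact permutation p was 0.444. Saline rat 25 was the lowest array at 13.7, and without it the difference was 0.01, while without slide 3 it was -0.03. In pachytene spermatocytes both groups were under background and no difference is given.

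For miR-7b in round spermatids cyclophosphamide minus saline was -0.03 ± 0.16 (SE, limma adjusted p = 1), with a 95% interval of -0.53 to 0.48 in the fit of the 2 groups alone and an exact permutation p of 0.937. A slide block moved it to 0.15 and leaving out slide 3 to 0.25, so that its direction was not settled.

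**Figure D5:**
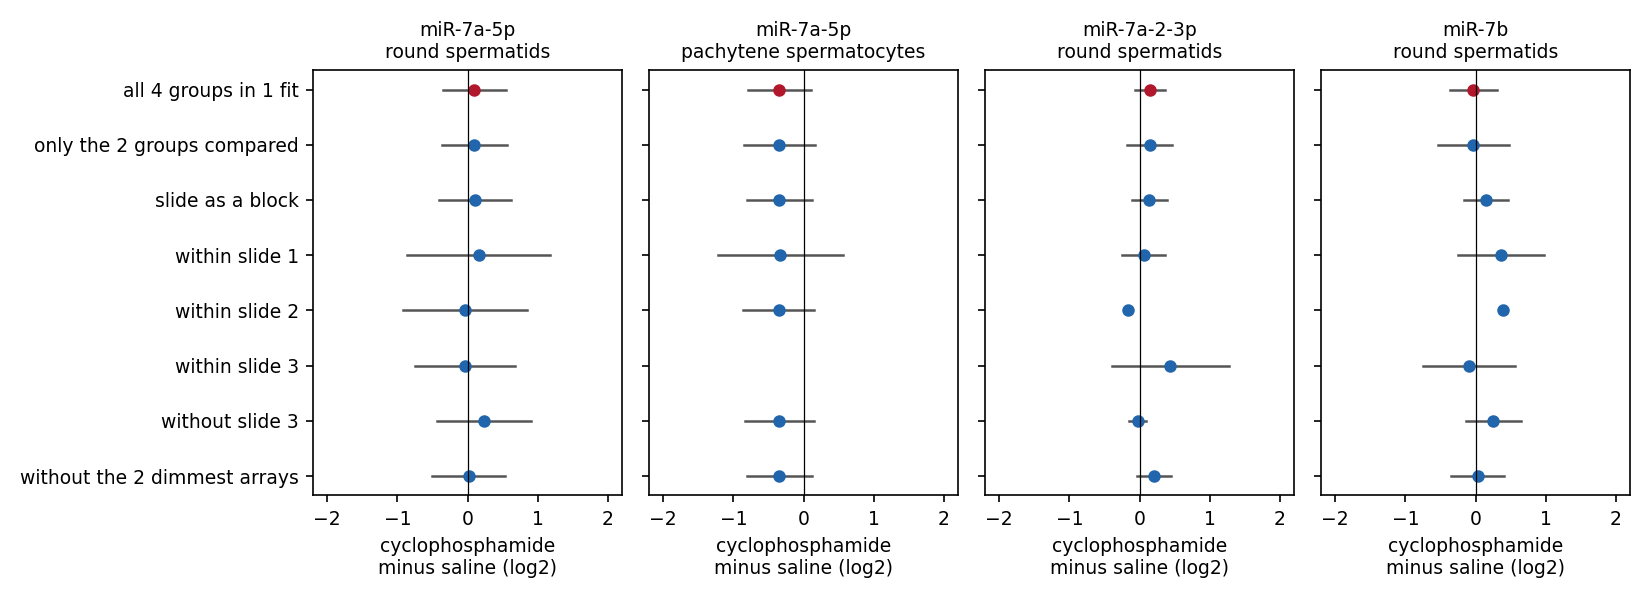
Cyclophosphamide minus saline (log2) for the members, with all 4 groups in 1 fit (red) and under 7 other settings (blue); lines are 95% intervals, and a point with no line has no spread of its own. All drawn intervals span 0, and the values for miR-7a-5p in round spermatids, miR-7a-2-3p and miR-7b fall on both sides of it.

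Within round spermatids the members were set against each other array by array. Over the 10 arrays miR-7a-2-3p and miR-7a-5p had Pearson's r of 0.40 (permutation p = 0.251) and Spearman's rho of 0.47 (p = 0.178), and r was 0.50 without the 2 arrays farthest from the median of miR-7a-2-3p. miR-7b and miR-7a-5p had r of 0.15 (permutation p = 0.687) and rho of 0.14 (p = 0.707), with r of 0.35 without the 2 farthest arrays. For miR-7b and miR-7a-2-3p r was 0.21 (permutation p = 0.616) and rho 0.41 (p = 0.247), with r of 0.30 without the 2 farthest arrays. None passed after adjustment over the 5 correlations.

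Across all 20 arrays the miRNAs whose pattern was most like that of miR-7a-5p were miR-140-3p, a miRNA of cartilage (r = 0.98), miR-124-3p, the main neuronal miRNA (r = 0.95), miR-218a-5p (r = 0.94), miR-497-5p (r = 0.94) and miR-223-3p (r = 0.94). These r describe points that share arrays and scaling, and they rest mostly on the step between the cell types. The step itself was smaller in each: round spermatids minus pachytene spermatocytes of miR-124-3p was 1.53 in cyclophosphamide rats and 1.45 in saline rats, and that of miR-140-3p was 0.74 in cyclophosphamide rats and 0.73 in saline rats. By the same measure, with their pachytene arrays at the floor, miR-7a-2-3p was 11th of 216 (r = 0.93) and miR-7b 39th (r = 0.75).

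With the group means taken out, the closest patterns over the 20 arrays were other ones: miR-743b-5p (r = 0.73), miR-742-3p (r = 0.70) and miR-463-3p (r = 0.69), which rodents encode in an X-linked miRNA cluster, then miR-140-3p (r = 0.66) and miR-148b-3p (r = 0.64). Of these, the 3 X-linked miRNAs had negative differences between round spermatids and pachytene spermatocytes, between -0.12 and -0.63. On this measure miR-7a-2-3p was 68th of 216 (r = 0.26) and miR-7b 96th (r = 0.11).

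Other miRNAs of the miR-7 circuit and of the tissues where miR-7 is best known were mostly not detected. miR-671 was detected on 1 of 5 cyclophosphamide and 1 of 5 saline round spermatid arrays, and on 4 of 5 cyclophosphamide and 2 of 5 saline pachytene arrays, near the floor, and was not tested. Of 23 arms of islet and neuroendocrine miRNAs, 15 were detected on no array, among them both arms of miR-153, miR-183, miR-96, miR-216a and miR-217, and miR-182. Of the 5 tested, 1 was called higher in round spermatids in both treatments, miR-124-3p, and 2 were called lower, the neuronal miR-129-1-3p at -1.27 in cyclophosphamide rats and -1.14 in saline rats and miR-129-2-3p at -1.47 in either. Over all 217, 29.5% were called higher and 22.6% lower in cyclophosphamide rats, and 25.8% higher and 21.7% lower in saline rats. With 5 tested, neither the 1 higher nor the 2 lower is read as a result about the list. miR-9a-3p, also tested, averaged at or near the floor in pachytene spermatocytes. It stood at 0.43 in cyclophosphamide rats and 0.30 in saline rats and was not called.

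The islet miRNA miR-375-3p was detected on all 20 arrays and averaged 6.39 in cyclophosphamide and 6.12 in saline round spermatids, and 6.21 in cyclophosphamide and 6.11 in saline pachytene spermatocytes (log2 signal). Its difference between the cell types was 0.18 in cyclophosphamide rats and 0.01 in saline rats and did not pass the test. The median difference over the 5 was 0.18 in cyclophosphamide and 0.01 in saline rats, beside 0.06 in cyclophosphamide and 0.02 in saline rats over all 217. None of the 5 was called for the drug in either cell type.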

How the data were processed

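Total RNA (100 ng) of 20 germ cell fractions was labelled with Cy3 and hybridised to Agilent miRNA arrays, per the labels' protocols. Each deposited array file lists linear spot intensity, background-subtracted but unscaled, from Agilent Feature Extraction, version 11.5.1.1 in the submitters' processing notes. The authors' deposited value table holds log2 values centred on each miRNA's median. How they were normalized is not given in the sources used here. It matched 49 tested miRNAs by name, miR-7b among them, and served only as an alternative. That alternative used the 45 whose r with the values used here was over 0.5. Since they were kept for their likeness, it is no independent check.

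For scaling, processed signals were set to a common 75th percentile of the 2176 spots that every array had well above background, then held at the floor and taken to log2. Control and outlier spots (379 to 635 per array) were left out, and none was saturated. Spots of a probe were averaged, and the brightest probe stood for its miRNA. Testing required detection on all 5 arrays of some group (217 of 677). Groups were compared in 1 limma 3.58.1 model (R 4.3.3, 16 residual degrees of freedom) with Benjamini-Hochberg adjustment over the 217, threshold 0.05, and the fit was tested on simulated data. Exact permutation tests, correlations (100000 resamples) and figures used Python 3.11.15.

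Members, lists and tests were chosen with earlier results of these data known. Named besides the members are the 3 miRNAs next below miR-7a-5p in each treatment, the 5 most like it by each measure of r, and list members. Precision is limited by 5 arrays per group. Normexp used the median spot signal, since the files hold no mean signal. Sequences are RefSeq's for GRCr8. The array files give no coordinates, and rows were matched to sequences by miRNA name (all 4 matched).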

Additional observations from a re-analysis of the deposited data

Results flagged for a closer look

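One array stood apart from the rest of its group. In saline round spermatids miR-7a-2-3p stood at 3.78 on the log2 scale (scaled signal 13.7) in rat 25, below the next array at 4.34, a gap of 0.793 of the group's whole range against Dixon's 95% critical value of 0.71 for 5 arrays. Of the 7 member groups with all values above the floor it was the only one, and chance alone marks about 5% of groups.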

How the results depend on the processing

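Adjusted p stayed above 0.05 for every drug difference of the members under all alternatives that gave a p, and none called a miRNA for the drug. For cyclophosphamide minus saline in round spermatids the sign was not kept. miR-7a-5p was -0.013 as the mean over all probes, -0.038 within slides 2 and 3 and -0.070 with array weights, and -0.046 to 0.22 leaving out each array in turn. miR-7a-2-3p was -0.16 within slide 2 and -0.027 without slide 3. miR-7b was 0.0051 with normexp, 0.012 as the mean over all probes, 0.15 with a slide block, 0.36 in slide 1, 0.39 in slide 2, 0.13 with a scan date block, 0.032 without the 2 dimmest arrays and 0.25 without slide 3, and -0.17 to 0.077 leaving out each array in turn. In the authors' deposited table, where miR-7b changed across arrays with a slope of 7.15 on the log2 values used here, it stood at -1.001 (limma adjusted p = 0.629). The cause was not tested. On slide 2 a single array stood for each treatment, and miR-7a-2-3p and miR-7b had no spread of their own.

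Round spermatids minus pachytene spermatocytes of miR-7a-5p kept its direction throughout. In cyclophosphamide rats it was 3.001 with no scaling, 1.93 with normexp and 2.90 within slide 2. In saline rats it was 2.49 with no scaling, 1.70 with normexp and 2.58 within slide 2. Leaving out each array in turn gave 3.27 to 3.53 in cyclophosphamide rats and 2.81 to 3.10 in saline rats. No scaling moved the median of all tested miRNAs to -0.22 in cyclophosphamide and -0.37 in saline rats, and that of cyclophosphamide minus saline in pachytene spermatocytes to -0.13. The lower limit of miR-7a-2-3p (log2) in cyclophosphamide rats was 1.04 with the percentile over all spots, 0.84 with no scaling and 1.07 within slide 1. In saline rats it was 0.68 with no scaling, 0.81 within slide 1 and 1.56 within slide 2. That of miR-7b was 1.38 within slide 2 in cyclophosphamide rats and 0.069 within slide 1 in saline rats, where the round spermatid array entered at the floor.

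Calls between the cell types numbered 113 in cyclophosphamide rats, with 73 without scaling, 71 within slide 1 and 17 of 45 in the authors' table. They numbered 103 in saline rats, with 56 within slide 1, 65 with the fixed replicate block of 3 saline rats and 17 of 45 in the authors' table, where fewer miRNAs or arrays enter. With rat number as a random replicate block (correlation 0.08) cyclophosphamide minus saline of miR-7a-5p was -0.36 in pachytene spermatocytes and 0.09 in round spermatids, and no miRNA was called for the drug; calls between the cell types numbered 114 in cyclophosphamide and 105 in saline rats. With the group means taken out, same-numbered arrays of the 2 cell types correlated between -0.29 and 0.16 over the tested miRNAs. These pairs were saline rats 16, 25 and 28 and cyclophosphamide rat 15. So few arrays cannot show whether they came from the same animals, and the numbers were not taken as pairs. With the fixed replicate block miR-7a-5p in saline rats was 2.99. The alternatives without slide 3 and without the 2 dimmest arrays, and the exact tests of the members that passed the filter, were chosen after seeing the data. Signals near background limit miR-7a-2-3p and miR-7b.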
